A study of Mus musculus with 4 samples.

Results

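The genes described here are the nuclear genes of oxidative phosphorylation. They were chosen by symbol: Ndufa, Ndufb, Ndufc, Ndufs and Ndufv genes other than the Ndufaf assembly factors, the 4 succinate dehydrogenase genes, Uqcr genes, Cox4i, Cox5, Cox6, Cox7 and Cox8 genes, and Atp5 genes. The rule found 85 of 31053 genes in the count matrices, 38 of complex I, 4 of complex II, 8 of complex III, 18 of complex IV and 17 of complex V. Complexes I to IV pass electrons from NADH and succinate to oxygen, and complexes I, III and IV pump protons across the inner mitochondrial membrane. Complex V, the ATP synthase, uses the proton gradient to make ATP. Most subunits are encoded in the nucleus and the others by mitochondrial DNA, so that each assembled complex except complex II draws on both genomes. Lymphocytes are known to enlarge this machinery when they are activated and divide.

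The RNA was that of CD45+ cells, CD45 being a surface protein of leucocytes, from the Peyer's patches (gut lymphoid tissue) of female wild-type Taconic mice. One group lacked segmented filamentous bacteria (SFB-negative) and the other carried these gut commensals (SFB-positive). Cells of 5 mice per group were pooled, and each group had 2 droplet libraries, replicates 1 and 2. The sources do not say whether the replicates are separate pools of mice, so p-values measure only the spread between these libraries, which may be technical. With the replicate number in the model, that spread was taken largely over all genes, not from each gene alone.

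The authors' table gives each of its cells a cluster number from 0 to 6, and it held 4050 and 7731 cells of SFB-negative replicates 1 and 2 and 3408 and 7380 of SFB-positive replicates 1 and 2. Median UMIs (counted RNA molecules) per cell, in the same order, were 1267, 3252, 1280 and 5864. The UMI total in the authors' table equalled that of the count matrix for 2674, 6079, 2222 and 5622 of these cells. The reason was not found, and the matrices were used here. Per library 6000 cells were loaded and 4000 targeted, so both replicate 2 libraries held more table cells than were loaded. The replicate number also marks the Cell Ranger version in the file headers and the presence of antibody tags, so it was treated as a technical batch. Clusters 0 and 1 were naive-like B cells, cluster 1 led by heat-shock genes (Hspa1a, Hspa1b) and Jun. Cluster 2 was activated-B-like (Mir155hg, Srm), cluster 3 germinal-centre-like and dividing, and cluster 6 plasma-like (Jchain). Clusters 4 (led by Ccr1, Camk2n1 and Fcrl5) and 5 (led by Gm26917) were left unnamed. The summed level of 7 T-cell markers was 9.79 to 19.5 CPM (UMIs of a gene per 1000000 gene UMIs of the same cells) over the libraries, that of 5 epithelial markers 8.69 to 24.7 CPM and that of 4 haemoglobin genes 2.01 to 7.35 CPM. SFB-negative replicate 2 stood apart in ribosomal protein transcripts, which took 27.2% of its gene UMIs against 18.1% to 19.9% in the other 3 libraries. Libraries of the same replicate number shared 30 and 40 barcodes, of which 13 and 13 were table cells.

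NRF1 (nuclear respiratory factor 1), ETS factors such as GABP and YY1 are known to bind near the start sites of many of these genes. Promoters of 300 bases, 250 before and 50 after the start, were found in RefSeq (GRCm38.p6) for 69 of the genes. The palindromic NRF1 site of 10 bases, in capitals in the Ndufa11 line, was searched on both strands and stood in 5 of these 69 promoters and in 0.977% of 27025 promoters of all genes. An ETS site, CCGGAAGT on either strand, stood in 5 of 69 and in 4% of all, a YY1 site, AAGATGGC on either strand, in 9 of 69 and in 2.88% of all, and a CCAAT box on either strand in 30 of 69 and in 37.9% of all. These are matches of letters, not measured binding. The stretches of 100 bases before the RefSeq start with such a site are shown for 3 genes, picked after their values were seen because they differed in what follows, with the NRF1 or ETS letters in capitals and the sequence read 5′ to 3′ on the gene's strand. Uqcr11 (chr10:80406822-80406921, minus strand) was higher in the germinal-centre-like cluster and passed the test as lower in SFB-positive libraries when the replicate number was in the model. Ndufa11 (chr17:56717662-56717761, plus strand) shared the first pattern. Uqcrh (chr4:116075071-116075170, minus strand) did not share the first and did not pass the test. It was still lower in SFB-positive libraries within replicate 1 (319 against 346 CPM) and replicate 2 (390 against 588 CPM).
Uqcr11: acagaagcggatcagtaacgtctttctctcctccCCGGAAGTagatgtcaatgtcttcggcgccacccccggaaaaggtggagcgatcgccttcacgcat
Ndufa11: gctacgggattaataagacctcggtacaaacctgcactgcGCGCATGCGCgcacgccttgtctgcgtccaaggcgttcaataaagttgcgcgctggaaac
Uqcrh: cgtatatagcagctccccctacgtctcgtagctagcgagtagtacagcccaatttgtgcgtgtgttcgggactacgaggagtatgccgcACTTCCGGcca

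The 85 genes together took 1.30% and 1.49% of gene UMIs in table cells of SFB-negative replicates 1 and 2 and 1.33% and 1.09% in SFB-positive replicates 1 and 2. Each UMI is a captured 3′ end, so levels in CPM count molecules without a correction for length. By mean level over the libraries the first genes were Cox4i1 of complex IV and Atp5b of complex V. Atp5b, the catalytic beta subunit of the ATP synthase, stood at 809 and 307 CPM in SFB-negative and 768 and 325 CPM in SFB-positive replicates 1 and 2. Atp5a1, the alpha subunit, stood at 518, 255, 536 and 311 CPM in the same order. Atp5g2, one of 3 genes for the c-ring subunit, stood at 307, 466, 370 and 465 CPM. Atp5b and Atp5a1 were higher in both replicate 1 libraries than in both replicate 2 libraries, and Atp5g2 was lower in them. The order of genes within a complex thus differed with the replicate number.

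In complex IV, cytochrome c oxidase, the most abundant were Cox4i1 with a mean of 622 CPM over the 4 libraries, Cox7a2l with 525 CPM and Cox8a with 429 CPM. In complex III, cytochrome bc1, Uqcrh (the hinge protein) had a mean of 411 CPM, Uqcrfs1 (the Rieske iron-sulfur protein) 208 CPM and Uqcrb 155 CPM. Of the genes counted with complex I, NADH dehydrogenase, by symbol, Ndufa4 was first with 198 CPM, though its protein is assigned to complex IV. The accessory subunits Ndufa2, Ndufa13 and Ndufa6 followed with 166, 165 and 165 CPM. Complex II, succinate dehydrogenase, was led by Sdhb with 141 CPM, followed by Sdha with 110 CPM and Sdhd with 70.7 CPM. Of the 85 genes, 6 were under 1 CPM in every library: Cox4i2, Cox6a2, Cox7b2, Cox8b, Cox8c and Ndufa4l2, several of them known as forms of muscle, testis or hypoxic tissue. Cox8b and Cox8c had 0 UMIs. Of the 85 entries 18, Atp5l with 6 copies among them, share a near-identical stretch (at least 98% identity over 90 bases) with another gene ID, so that reads could have been split between them. Atp5o is listed under 2 gene IDs that overlap on chromosome 16, and the second had 0 UMIs in both replicate 1 libraries and 4.19 and 1.96 CPM in SFB-negative and SFB-positive replicate 2.

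Across clusters the genes differed largely together, with the highest share in germinal-centre-like cluster 3. The clusters were built from expression, so these contrasts are described without a test. In cluster 3 the 85 genes took 1.95% and 2.28% of gene UMIs in SFB-negative replicates 1 and 2 and 1.93% and 1.55% in SFB-positive replicates 1 and 2. In naive-like cluster 0 they took 1.22% and 1.37%, and 1.22% and 0.981%. Within each library cluster 3 was higher, by 0.68 ± 0.036 on the log2 scale (SD, n = 4 libraries), a 1.61-fold difference. Activated-like cluster 2 was higher than cluster 0 by 0.25 ± 0.055 and cluster 4 by 0.15 ± 0.072, while cluster 1 differed by -0.24 ± 0.087, with the same sign in all 4 libraries in each case. A share of UMIs is not an amount per cell: counted as UMIs per cell, where cluster 3 cells are deeper, the difference of cluster 3 was 2.30 on the log2 scale, and a larger cell cannot be told apart here from deeper capture.

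**Figure D1:**
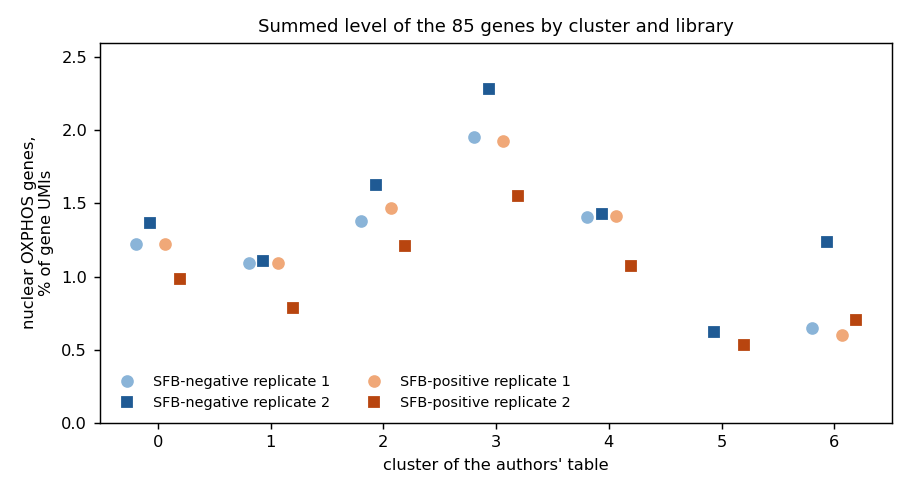
Percent of all gene UMIs that the 85 genes took, by cluster of the authors' table (x axis) and library (colour and symbol). In clusters 0 to 4 cluster 3 is highest in every library, from 1.55% to 2.28%, and SFB-positive replicate 2 is lowest in each.

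Single genes of every complex took part. A gene was counted as higher where its CPM ratio was at least 1.5 in each of the 4 libraries, among genes with a mean of 20 CPM or more. In cluster 3 against cluster 0, 38 of 75 genes were higher and 0 lower, against 18.8% higher and 9.19% lower of all 5951 genes compared. The median log2 ratio was 0.73 over the 75 genes and 0.14 over all genes. The 38 were 16 of 37 in complex I, 2 of 4 in complex II, 4 of 8 in complex III, 6 of 11 in complex IV and 10 of 15 in complex V. At a fold of 2 the count was 7 of 75, beside 10.1% of all genes.

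Sdhb, the iron-sulfur subunit of succinate dehydrogenase, had the largest ratio. Its level was 121 and 67.8 CPM in cluster 0 of SFB-negative replicates 1 and 2 and 135 and 93.0 CPM in SFB-positive replicates 1 and 2, and 374, 184, 423 and 214 CPM in cluster 3 in the same order. All 4 libraries were higher in cluster 3, with a mean ratio of 2.79-fold. Uqcr11, the smallest subunit of complex III, was 2.67-fold higher, Ndufc2, an accessory subunit of the membrane arm of complex I, 2.50-fold, Ndufab1, the mitochondrial acyl carrier protein, 2.45-fold, and Ndufa12, an accessory subunit of the matrix arm, 2.41-fold. Ndufa11, shown above with its NRF1 site, differed by 1.03 ± 0.060 on the log2 scale.

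Some members did not follow. Ndufa6, an accessory subunit of complex I, stood at 175, 236, 172 and 168 CPM in cluster 0 (SFB-negative replicates 1 and 2, then SFB-positive replicates 1 and 2) and at 128, 201, 110 and 132 CPM in cluster 3, lower in all 4. Uqcrb, a subunit of complex III, differed by replicate number. It was lower in cluster 3 of both replicate 1 libraries (135 against 266 CPM and 141 against 223 CPM). In both replicate 2 libraries it was higher there (200.1 against 149 CPM and 97.2 against 76.7 CPM). Sdha, the flavoprotein of succinate dehydrogenase and the partner of Sdhb, had a mean log2 ratio of -0.0059 ± 0.47. Ndufb4, an accessory subunit of complex I, had -0.036 ± 0.16, Ndufa3 0.0065 ± 0.11 and Uqcrh 0.064 ± 0.17, so that the mean ratios of these genes lay within their spread over libraries.

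**Figure D2:**
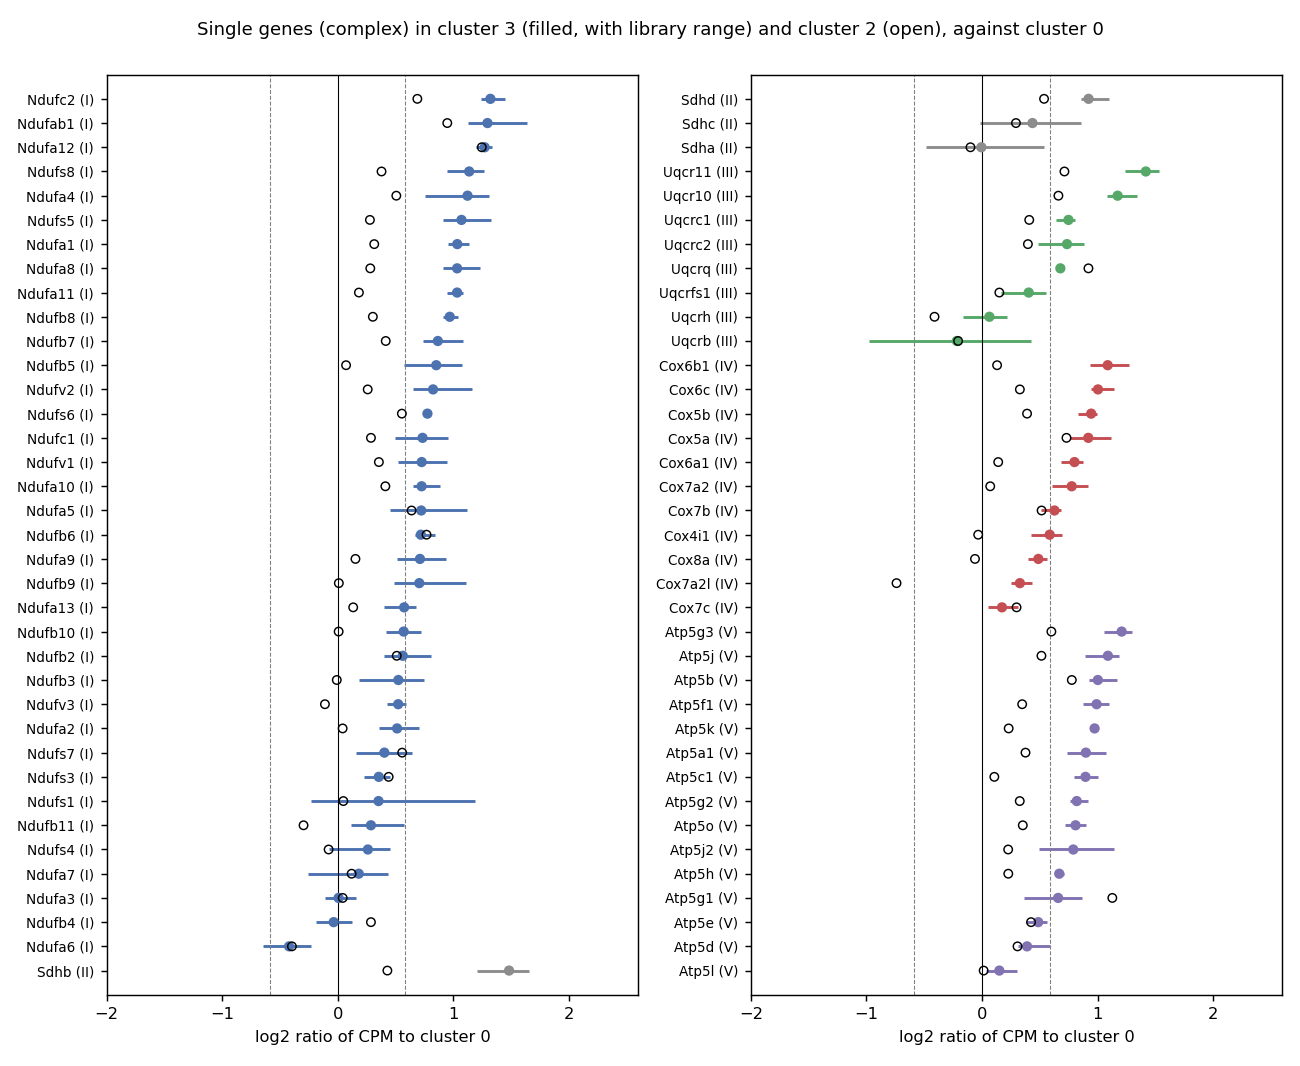
Log2 ratio of CPM to cluster 0 for 74 of the 75 genes compared, sorted within complexes I to V: filled points are the mean over 4 libraries in cluster 3, lines their lowest to highest library, and open circles the mean in cluster 2. Dashed lines mark a fold of 1.5. Most filled points lie right of 0, with a median of 0.73 over the 75, and Ndufa6 and Uqcrb lie left of it.

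Cluster 2 had a median above that of all genes, while the share of genes past the 1.5-fold rule was near theirs. In cluster 2 against cluster 0, 7 of 75 genes were higher and 1 lower, beside 9.03% and 3.62% of all 5723 genes compared, and the median log2 ratios were 0.30 and 0.02. The 7 were Ndufa12, Atp5g1, Ndufab1, Uqcrq, Atp5b, Ndufb6 and Cox5a. Atp5g1, a second gene of the c-ring subunit, had 142, 162, 129 and 114 CPM in cluster 0 and 287, 344, 296 and 263 CPM in cluster 2 (SFB-negative replicates 1 and 2, then SFB-positive replicates 1 and 2). Its ratio of 2.18-fold in cluster 2 was above its 0.66 on the log2 scale (1.58-fold) in cluster 3. Cox7a2l, which promotes supercomplexes of respiratory complexes, was the gene that was lower, with 0.60 of its level in cluster 0. It stood at 442, 184, 445 and 208 CPM in cluster 2 and at 725, 305, 833 and 317 CPM in cluster 0, and at 899, 412, 991 and 394 CPM in cluster 3. The other low ratios were 0.75 for Uqcrh, 0.76 for Ndufa6, 0.81 for Ndufb11 and 0.87 for Uqcrb.

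Cluster 3 against cluster 2 gave 7 of 75 genes higher and 0 lower, against 14.4% and 9.93% of all 5961 genes compared. The 7 were Cox7a2l (2.10-fold), Sdhb (2.08-fold), Cox6b1, Ndufa11, Ndufs5, Atp5k and Ndufb8. In cluster 4 against cluster 0, 0 genes were higher and 0 lower, against 2.77% and 1.22% of all genes. The highest ratios there were 1.45-fold for Ndufc2, 1.36-fold for Ndufa8, 1.33-fold for Atp5c1, 1.32-fold for Ndufb5 and 1.31-fold for Ndufa10. The lowest were 0.82 for both Uqcrb and Ndufs1, 0.84 for both Ndufa5 and Ndufv1 and 0.87 for Sdha. In cluster 1 against cluster 0 also 0 were higher and 0 lower, beside 1.24% and 0% of all genes, and 52 of 75 were lower by any amount in every library, as were 16.2% of all genes.

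Cluster 5 was the lowest. Its cells came from replicate 2, 258 SFB-negative and 209 SFB-positive, apart from 1 cell of SFB-negative replicate 1. The 85 genes took 0.624% and 0.529% of its gene UMIs. Against cluster 0 of the same libraries, 52 of 74 genes were lower and 0 higher, beside 14.7% and 25.1% of all 6387 genes compared. Against cluster 3, 71 of 74 were lower and 0 higher, beside 18.8% and 19.6% of all 6498 genes. The transcripts of the 13 mitochondrially encoded subunits took 3.29% and 3.75% of UMIs in cluster 5 and 3.43% and 3.82% in cluster 3 of these libraries. The ratio of nuclear to mitochondrially encoded subunit UMIs was thus 0.190 and 0.141 in cluster 5 and 0.665 and 0.405 in cluster 3. Median UMIs per cell of cluster 5 were 1289 and 1115, ribosomal protein transcripts took 9.83% and 7.02%, and the part of depth or RNA quality in its low levels was not tested.

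In plasma-like cluster 6 (6, 30, 24 and 68 cells in SFB-negative replicates 1 and 2 and SFB-positive replicates 1 and 2) the 85 genes took 0.647%, 1.24%, 0.598% and 0.701% of UMIs. That was 0.65 ± 0.41 lower than cluster 0 on the log2 scale. Immunoglobulin genes took 28.6% to 59.9% of the UMIs of these cells, and with those genes left out of the total the sign turned, to 0.32 on the log2 scale. By the rule above, 5 of 75 genes were lower (Ndufa6, Sdha, Ndufc2, Atp5l and Ndufs4) and 0 higher, beside 31.1% and 3.2% of all 5026 genes. With immunoglobulin genes left out, a setting added after the data were seen, 7 were higher (Ndufa1, Ndufs5, Atp5j2, Ndufa4, Uqcr11, Uqcrq and Ndufb9) and 1 lower (Ndufa6), beside 8.18% and 7.08% of all genes. Of the 75 genes 11 had 0 UMIs in the 6 cells of SFB-negative replicate 1. Among the others the highest mean log2 ratios were 1.03 for Ndufa1, 0.47 for Uqcr11, 0.32 for Uqcrq, 0.28 for Ndufb9 and 0.22 for Ndufa4, and the lowest -1.70 for Atp5g2, -1.36 for Sdha, -1.34 for Uqcrb, -1.28 for Cox7a2l and -1.21 for Sdhd.

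The likeness of single genes to the rest was measured over clusters 0 to 5 in the 4 libraries, 22 points with at least 20 cells each, after the mean of each library was removed. For 72 genes with a mean of 50 CPM or more, the median Pearson r with the summed level of the other members was 0.90, and 63 had r over 0.8. Of 3242 genes at that level, 388 had r over 0.8 with the summed level. The points share libraries, and without cluster 5 the median was 0.89, with 56 of 72 genes over 0.8 beside 14.6% of all genes. Cox5b (0.99), Atp5f1 (0.99) and Sdhd (0.98) were most like the rest. Ndufa6 (0.50), Sdha (0.57), Cox7a2l (0.60) and Uqcrb (0.65) were least like it, and without cluster 5 Ndufa6 had r = -0.52. Of genes outside the list, the 10 most like the summed level were Mrps33, Tma7, Mrps21, Psmb4, Arf5, Slc25a3, Snrpe, Nedd8, Swi5 and Ubxn1, with r from 0.97 to 0.98. Mrps33 and Mrps21 encode mitochondrial ribosomal proteins and Slc25a3 the mitochondrial phosphate carrier.

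The summed level differed by SFB mainly within replicate 2. In cluster 3 the SFB-negative libraries had 2.12% ± 0.232 and the SFB-positive libraries 1.74% ± 0.269 (SD, n = 2 each), with log2 differences of -0.02 within replicate 1 and -0.56 within replicate 2. In cluster 0 it was 1.30% ± 0.104 and 1.10% ± 0.169, with -0.0039 and -0.48. With 2 libraries against 2 the smallest p that an exact two-sided permutation test can give is 0.333, so none was run.

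Between the SFB groups, none of these genes passed the test without the replicate number, and 8 fell in SFB-positive table cells when the number was a term of the model (the replicate block). The 8 were Ndufa1, Ndufa3, Ndufa5, Ndufb2, Ndufb4 and Ndufc1 of complex I, Uqcr11 of complex III and Atp5k of complex V, and none rose. The test was edgeR's quasi-likelihood test on UMIs summed per library, with Benjamini-Hochberg adjustment over all 12268 genes tested and a limit of 0.05. With the block, 8 of 79 genes fell and 0 rose, beside 2.68% and 0.929% of all genes, and without it 0 of 79 and 0% of all genes passed in either direction. At an unadjusted p under 0.05, 28 of the 79 were lower with the block and 0 without it, and over all genes 11.5% and 0.0978% were under that p in either direction. DESeq2 without the block also called 0. The make-up of the table cells differed too: the summed level of 9 germinal-centre markers was 326 and 586 CPM in SFB-negative and 471 and 1000.5 CPM in SFB-positive replicates 1 and 2, and that of 7 plasma-cell markers 1326 and 889 against 2722 and 1609 CPM. The differences within single clusters are given further on.

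Ndufa1, a small membrane-arm subunit needed for complex I assembly (chrX:37187588-37191163, minus strand, GRCm38), stood at 57.0 and 147.7 CPM in SFB-negative and 43.6 and 59.5 CPM in SFB-positive replicates 1 and 2. SFB-negative replicate 2 was far above the other 3, and the groups overlapped in CPM. Its log2 difference was -1.05 ± 0.25 (SE, n = 2 per group) with the block (adjusted p = 0.00141) and -1.16 ± 0.62 without it (adjusted p = 1.00). Within replicates 1 and 2 the scaled log2 differences of Ndufa1 were -0.40 and -1.63. The spread behind blocked SEs and p-values came largely from all genes, not from the single gene. Ndufb4 (chr16:37647170-37654453) and Ndufb2 (chr6:39592574-39603382) are further membrane-arm subunits. Ndufb4 stood at 64.4 and 123 CPM against 44.8 and 56.9 CPM, and Ndufb2 at 52.1 and 78.4 against 39.1 and 41.4 CPM. In both genes each SFB-negative library was above each SFB-positive library, and the blocked log2 differences were -1.01 ± 0.24 (adjusted p = 0.00200) and -0.86 ± 0.23 (adjusted p = 0.00871). Ndufb2 has a near-identical copy, Gm42420.

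Atp5k (chr5:108433244-108434448), subunit e of the ATP synthase, which helps to hold synthase dimers together, stood at 127 and 176 CPM in SFB-negative and 109 and 63.5 CPM in SFB-positive replicates 1 and 2, without overlap. Its blocked log2 difference was -1.03 ± 0.26 (adjusted p = 0.00422). Uqcr11 stood at 66.0 and 119 against 61.2 and 55.1 CPM, with a difference of -0.80 ± 0.24 (adjusted p = 0.0314). Ndufa3 stood at 145 and 186 against 130.2 and 75.9 CPM (log2 difference -0.91, adjusted p = 0.0205). Ndufa5, a matrix-arm subunit (-0.86, adjusted p = 0.0134), and Ndufc1, a membrane-arm subunit (-0.76, adjusted p = 0.0449), overlapped between groups in CPM. In all 8, SFB-negative replicate 2 was the highest library.

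**Figure D3:**
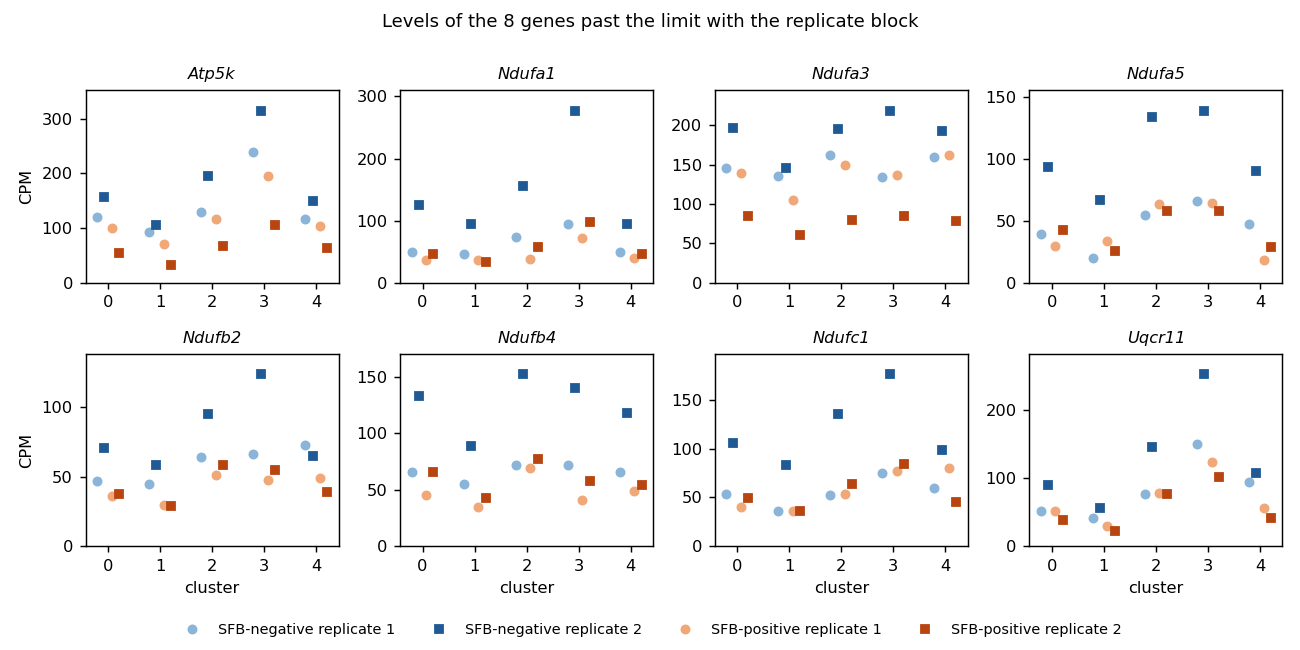
CPM of the 8 genes that fell with the replicate block, by cluster 0 to 4 (x axis) and library (colour and symbol), each panel from 0. SFB-negative replicate 2 is the highest library in nearly all panels and clusters, and the other 3 libraries lie closer together; Ndufa1 in cluster 3 has 277 CPM there and 71.8 to 98.1 CPM in the others.

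The differences lay mostly within replicate 2. TMM scaling sets the library factors from a trimmed mean of log ratios over genes. After it, the median log2 difference of the 79 genes was -0.04 within replicate 1 and -0.69 within replicate 2. The medians of all genes were -0.03 and -0.00018. In plain CPM, without that scaling, the corresponding medians were -0.03 and -0.37 for the 79 and -0.02 and 0.32 for all genes. On the TMM scale 43 of the 79 were lower within both numbers, beside 26.3% of all genes, and 32 were lower without overlap of the groups, beside 6.56%. In CPM these counts were 36, beside 12.6%, and 13, beside 3.44%. Without overlap 0 genes were higher, beside 4.28% of all genes on the TMM scale and 7.74% in CPM. Of the 8 genes, Ndufb4 (-0.54), Ndufb2 (-0.43) and Ndufa1 (-0.40) differed most within replicate 1, and Ndufa5 (-0.03) and Ndufc1 (-0.08) least. Without SFB-negative replicate 2 the unblocked differences of the 8 shrank to between -0.64 for Atp5k and -0.10 for Ndufa5 and Ndufc1, and the median went from -0.35 over the 79 genes to -0.17 over the 78 then tested. Ribosomal protein transcripts, which are also short, had their highest share in that library, and their part in these differences was not tested.

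**Figure D4:**
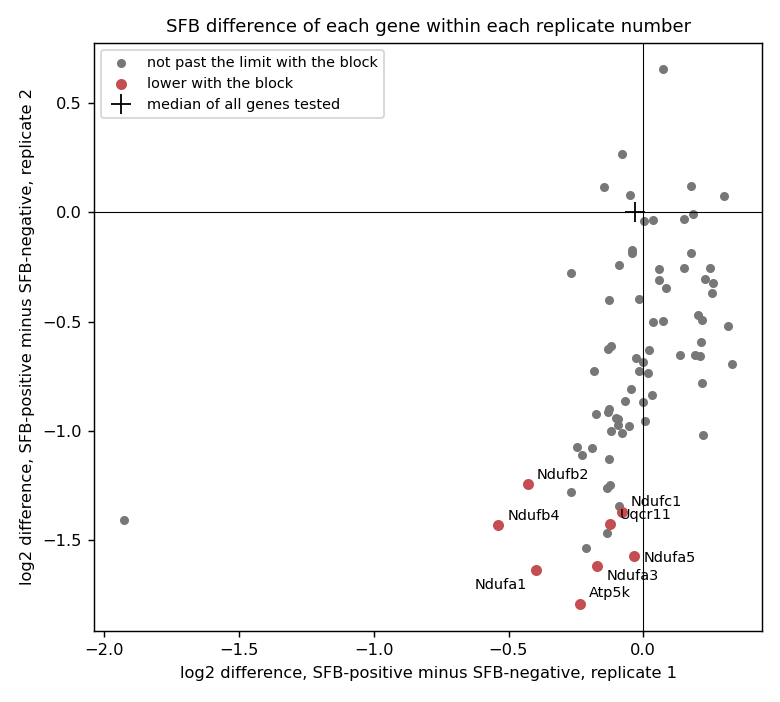
Log2 difference of each gene in table cells, SFB-positive minus SFB-negative on the TMM scale, within replicate 1 (x axis) and replicate 2 (y axis). Red points are the 8 genes that fell with the block and the cross is the median of all genes tested. The points spread around 0 along x and lie mostly below 0 along y; the point at the far left is Cox7a1, under 1.5 CPM in every library.

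Differences within replicate 2 went with transcript length. Transcript lengths were medians over coding transcripts in GENCODE M21, and lay between 322 and 2676 bases for 75 genes with a mean of 20 CPM or more. Within replicate 2, the 25 genes of up to 575 bases had a median log2 difference in CPM of -0.69, the 25 of middle length -0.34 and the 25 over 871 bases 0.01. Within replicate 1 the same medians were -0.12, 0.03 and 0.07. Across the 75 genes Pearson's r of log2 length with the difference was 0.54 within replicate 2 and 0.26 within replicate 1, and across all 5741 genes at that level 0.40 and -0.09. The genes share these libraries and are not independent replicates. Of the 8 genes that fell with the block, 4 were in the shortest group and 2 in the longest, Ndufb4 (971 bases, -1.11 within replicate 2) and Ndufb2 (2413 bases, -0.92). Between the replicate numbers the SFB-negative libraries also differed by length, with the opposite sign. From replicate 1 to replicate 2 the shortest group was higher by 0.75, and the longest group differed by -0.63. There r was -0.53 across the 75 genes and 0.31 across all genes. When a length correction was added to the block, a setting chosen after the data were seen, 5 genes fell (Ndufa1, Ndufb4, Ndufb2, Atp5k and Ndufa5), beside 1.61% of all genes. With that correction 19 were under 0.05 unadjusted, beside 11.4% of all genes in either direction. The median blocked difference of the 79 genes was then -0.24, against -0.37 without the correction. With the block and cells of at most 3000 genes, also added later, 0 genes passed in all table cells, beside 0.342% lower of all genes. The median was then -0.45, and 24 were under 0.05 unadjusted, beside 5.11% of all genes in either direction. That limit left out 1860 of 7380 cells of SFB-positive replicate 2, 343 of 7731 of SFB-negative replicate 2 and 0 of either replicate 1 library.

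**Figure D5:**
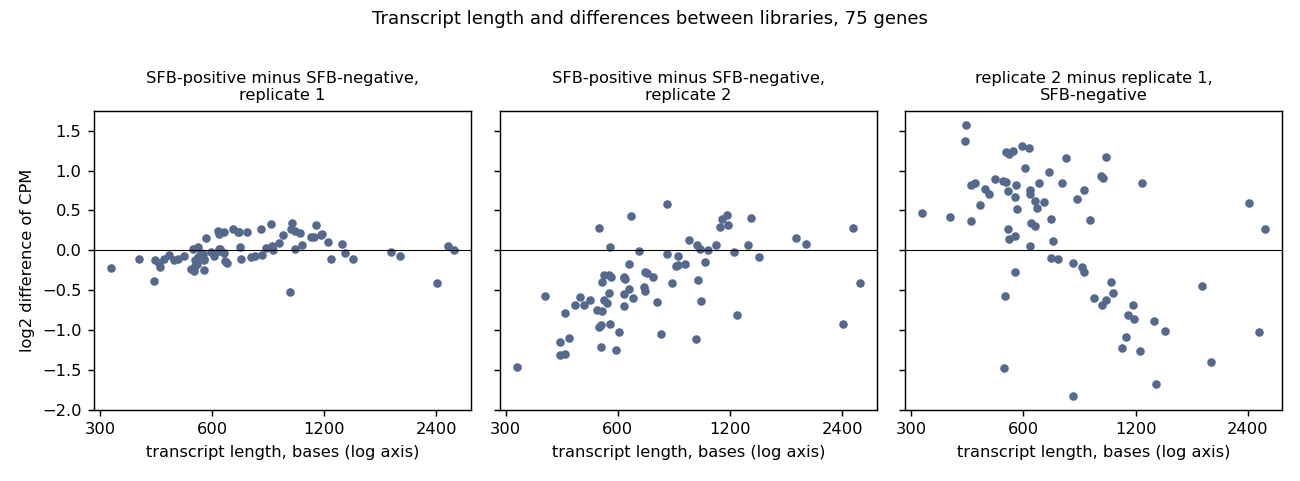
Log2 difference in CPM (y axis) against transcript length in bases (x axis, log scale) for 75 genes: SFB-positive minus SFB-negative within replicate 1 (left) and within replicate 2 (middle), and replicate 2 minus replicate 1 in SFB-negative libraries (right). The left panel is nearly flat, short genes lie lowest in the middle panel (median -0.69), and short genes lie highest in the right panel (median 0.75).

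Of the core subunits of complex I, which carry its electron transfer, 6 were looked up after the values were seen (Ndufs1, Ndufs3, Ndufs7, Ndufs8, Ndufv1 and Ndufv2). Their blocked log2 differences went from -0.27 for Ndufv1 to -0.00094 for Ndufs1, and 0 of these 6 were past the limit. A difference between core and other subunits was not tested. Complex II genes had a median of -0.0044. Among genes at 20 CPM or more the largest positive differences without the block were 0.22 for Sdhb, 0.16 for Uqcrc2, a core protein of complex III, and 0.12 for Ndufa10. Sdhb stood at 158 and 89.9 CPM in SFB-negative and 197 and 118 CPM in SFB-positive replicates 1 and 2. Those differences were small beside the spread between replicates and did not pass with or without the block (each adjusted p at least 0.914 with it, edgeR). Atp5e, the epsilon subunit of the ATP synthase, had one of the largest negative differences, with 249.6 and 744 CPM against 229.5 and 336 CPM, and did not pass (adjusted p = 0.149 with the block and 1.00 without it).

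The calls with the block were spread over clusters. In cluster 0, 7 of 77 genes fell and 0 rose (beside 1.92% and 0.236% of all genes), in cluster 1 3 of 76 (0.851% and 0.13%), and in cluster 2 2 of 76 (0.886% and 0.258%). In cluster 3, 3 of 77 fell (0.972% lower and 0.375% higher of all genes) and in cluster 4 5 of 76 (1.2%, 106 of 8500 genes, and 0.282%). Without the block 0 passed in each, beside 0% of all genes. The 1 gene with an unadjusted p under 0.05 was Ndufa5 in cluster 4, where 0.188% of all genes were under it. Ndufa1 fell in all 5 clusters and Ndufb4 in 4 (0, 1, 3 and 4). Atp5k fell in clusters 0, 2 and 4, Uqcr11 in 0, 1 and 4, Ndufa5 in 0 and 4, Ndufb2 in 0 and 3 and Ndufc1 in 0.

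The largest blocked difference was that of Ndufa5 in cluster 4. Ndufa5 in cluster 4 had 47.2 and 90.4 CPM in SFB-negative and 18.8 and 28.9 CPM in SFB-positive replicates 1 and 2, without overlap. Its blocked log2 difference was -1.84 ± 0.32 (adjusted p = 4.45e-06), with -1.28 within replicate 1 and -1.98 within replicate 2. The replicate 1 values rest on few UMIs of this gene. Cluster 4 held 124 cells with 318000 gene UMIs in SFB-negative replicate 1 and 152 cells with 426147 in SFB-positive replicate 1. Ndufa1 in cluster 2 had 73.9 and 155 CPM against 38.0 and 58.3 CPM, also without overlap, and a difference of -1.47 ± 0.30 (adjusted p = 2.77e-04). In cluster 3 Ndufb4 had 71.9 and 140.4 CPM against 41.2 and 57.9 CPM (-1.24 ± 0.30, adjusted p = 0.00665). With cells of at most 3000 genes and the block, 6, 2, 1, 0 and 2 genes fell in clusters 0 to 4, beside 1.68%, 0.647%, 0.515%, 0.162% and 0.310% of all genes. The medians of the genes tested were then -0.44, -0.37, -0.48, -0.36 and -0.55, against -0.44, -0.36, -0.37, -0.39 and -0.42 with the block and all cells. In cluster 3 that limit left out 750 of 830 cells of SFB-positive replicate 2 and 199 of 719 of SFB-negative replicate 2. In cluster 4 it left out 335 of 497 and 26 of 374 cells in the same order. It left out 0 cells of either replicate 1 library. In cluster 3 the largest unblocked differences also included Cox7c at -1.18 and, upward, Sdhc at 0.26, Uqcrfs1 at 0.21 and Ndufs1 at 0.16, none past the limit with or without the block. Cox7c has 2 near-identical copies.

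A difference between clusters in the SFB difference was tested directly. With edgeR's quasi-likelihood test of the interaction, 0 of 79 genes passed for cluster 3 against cluster 0, beside 0.0277% higher and 0.0185% lower of all genes. At an unadjusted p under 0.05 there were 0, beside 2.08% of all genes. For cluster 2 against cluster 0, 0 of 76 passed, beside 0.00998% and 0%, and again 0 were under 0.05 unadjusted, beside 2.99% of all genes. DESeq2 gave 0 in both. Clusters 5 and 6 had too few cells in replicate 1 for a test.

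Other mitochondrial gene lists were read from the same fits. Without the block 0 genes of any list passed, beside 0% of all genes. In table cells with the block, 2.68% of all genes fell and 0.929% rose. With it, 3 of 13 mitochondrially encoded genes fell in table cells and 0 rose: mt-Atp8, mt-Nd3 and mt-Nd6. The summed share of the 13 in gene UMIs did not fall. In SFB-positive table cells it was higher by 0.143 (log2) within replicate 1 and 0.121 within replicate 2, though the groups overlapped. It was also higher within both numbers in each of clusters 0 to 4, and lower within both in cluster 6. The median blocked difference of the 13 single genes was -0.139, beside -0.019 for all genes. Of the 3 genes that fell, mt-Atp8 encodes a membrane subunit of the ATP synthase. It stood at 68.2 and 178 CPM in SFB-negative and 25.5 and 33.0 CPM in SFB-positive replicates 1 and 2 (log2 difference -2.14 ± 0.26, adjusted p = 4.98e-14). The gene overlaps mt-Atp6 on the same transcript, so that the assignment of its reads is uncertain. Of 44 assembly factors tested 5 fell and 0 rose, among them Pet100, which helps to build complex IV, with 61.4 and 78.3 against 45.6 and 26.5 CPM (-1.20 ± 0.24, adjusted p = 5.13e-05). The others were Cox16, Cox17, Ndufaf8 and Uqcc2. Of 16 glycolysis genes 1 fell, Hk2. In 78 mitochondrial ribosomal protein genes, 17 genes of the TCA cycle, 10 electron carriers and related genes, and 13 regulators of mitochondrial biogenesis 0 passed. In cluster 3, Suclg2, a TCA-cycle gene, rose, with 61.6 and 64.8 CPM in SFB-negative and 133 and 147 CPM in SFB-positive replicates 1 and 2 (1.03 ± 0.30, adjusted p = 0.0484). Of all genes 0.375% rose in cluster 3 with the block. Suclg2 was the 1 gene of these lists that rose in any of the classes tested.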

How the data were processed

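Gene UMI counts were deposited per library as matrices of whole numbers without normalization. Per the submitters' processing notes, Cell Ranger 5.0.1 and mm10 were used, whereas per the file headers the matrices carry Cell Ranger 6.0.0 (replicate 1) and 7.0.0 (replicate 2). The authors also deposited a table with a library code, cluster number, counts of UMIs and genes and percent of mitochondrial UMIs per cell. How cells were filtered, doublets treated and clusters made was not given in the sources used here, and no doublets were removed here.

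The genes and all lists were chosen with earlier results of these data known. UMIs were summed per library and cluster (at least 20 cells) and tested with edgeR 4.0.16 (quasi-likelihood, TMM, filterByExpr) in R 4.3.3, without and with the replicate number as a block. DESeq2 1.42.0 was an alternative. Named genes are those past the limit in any class with or without the block, the 3 largest differences in each direction, the most abundant per complex, the 5 largest ratios per cluster contrast and those under 1 CPM. The single values of 1 gene are not reported here. Genes counted as higher or lower between clusters and those with a printed promoter were named after their values were seen. The replicate numbers were taken as a batch from the file headers. Deviations of same-numbered libraries from their group means had r = 0.88 over 12268 genes. With the block 1 residual degree of freedom is left, so a gene's spread comes largely from all genes. No 2 libraries were alike within sampling noise. Alternatives were other scaling and filters, cells of at most 3000 genes, immunoglobulin genes left out and each library left out.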

Additional observations from a re-analysis of the deposited data

Results flagged for a closer look

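For 7 of 359 gene and cluster combinations, the ratio to cluster 0 had one sign in both SFB-negative libraries and the other in both SFB-positive libraries. That is 1.95% of them, and 4.23% of 25691 combinations over all genes met the same rule. In cluster 2 this was Atp5l, whose mean log2 ratio was 0.11 higher in SFB-positive than in SFB-negative libraries (0.07 against -0.04). In cluster 3 it was Ndufb4, with a difference of -0.27 (-0.17 against 0.10). The interaction tests for both gave adjusted p = 1.00 each (edgeR). In cluster 4, where the difference was not tested, they were Sdhc (0.28), Atp5k (0.19), Atp5g1 (0.29), Atp5h (0.21) and Ndufb8 (0.36), all higher in SFB-positive libraries.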

How the results depend on the processing

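The count of genes past the limit was 0 in every class without the block under each scaling, filter, DESeq2 and cell limit tried, and leaving out each library in turn gave 0 to 0. With the replicate block it was 8 in all table cells and 7, 3, 2, 3 and 5 in clusters 0 to 4. Adding the removal of immunoglobulin genes to the block gave 8 and 7, 5, 2, 3 and 5, adding the length correction gave 5 and 5, 5, 1, 3 and 3, and adding the limit of 3000 genes per cell gave 0 and 6, 2, 1, 0 and 2. The limit of 3000 genes left out cells of replicate 2 alone, 1860 of SFB-positive and 343 of SFB-negative. The cause of these changes was not tested. These 3 combinations were chosen after seeing the data, and no library could be left out with the block. Cluster 5 could not be tested, as it has 1 and 0 cells in replicate 1.

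The summed level against cluster 0 as UMIs per cell, in place of CPM, was -0.12, 0.73, 2.30 and 1.17 on the log2 scale in clusters 1 to 4, and in cluster 6 it turned to 1.48. With immunoglobulin genes left out of the total cluster 6 turned to 0.32. Cluster 2 had 0.18 with cells of at most 3000 genes. Cluster 3 had 0.62 without mitochondrial and ribosomal protein genes and 0.73 as a median over genes. Leaving out 1 library gave -0.26 to -0.21, 0.23 to 0.27, 0.67 to 0.69, 0.13 to 0.18 and -0.81 to -0.52 in clusters 1, 2, 3, 4 and 6.

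Among named genes, unblocked log2 differences changed sign when 1 library was left out for 7 genes. In table cells the ranges were -1.54 to 0.037 for Atp5e (above 0 without SFB-negative replicate 2), -0.55 to 0.67 for Ndufa10, -0.43 to 0.74 for Sdhb and -0.30 to 0.59 for Uqcrc2. In cluster 3 they were -0.71 to 1.54 for Sdhc, -0.64 to 0.93 for Uqcrfs1 and -0.011 to 0.28 for Ndufs1. The values below 0 of Ndufa10 (-0.21 and -0.55), Sdhb (-0.09 and -0.43), Uqcrc2 (-0.10 and -0.30), Sdhc (-0.46 and -0.71) and Uqcrfs1 (-0.30 and -0.64) came without SFB-negative replicate 2 and without SFB-positive replicate 1, and that of Ndufs1 without SFB-negative replicate 1. The cause was not tested.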
